A study of Mus musculus with 8 samples.

Results

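Described here are 10 genes of innate immune signalling, measured in hearts of db/db mice given DIZE or vehicle. They are the receptor genes Tlr4 and Tnfrsf1a, the NF-kB subunit genes Nfkb1 and Rela, the inhibitor gene Nfkbia, the chemokine genes Ccl2, Ccl8 and Cxcl12, and the adhesion genes Vcam1 and Icam1. They were chosen by name, with earlier results of these data known, and each of the 10 matched 1 row among the 55487 genes of the deposited count table. All 10 had enough reads to be tested, as had 13648 genes in all.

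All mice were db/db, a strain that lacks a working long form of the leptin receptor and grows obese and diabetic. The vehicle group held 4 libraries of heart RNA. The treated group also held 4, from mice that received DIZE, read here as the antiprotozoal drug diminazene aceturate. There was no lean group in the comparison, and the labels used here give no dose, route, duration, age or sex. Nor do they state that the libraries are from different animals. The p-values therefore measure the spread between these libraries, and it may be technical.

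NF-kB is a family of transcription factors that waits in the cytoplasm, bound by inhibitors such as IkB-alpha, the product of Nfkbia. Signals from Toll-like receptors or the TNF receptor activate a kinase complex that marks the inhibitor for breakdown, and dimers such as p50 with p65, the products of Nfkb1 and Rela, then enter the nucleus. Among their targets are Nfkbia itself, chemokines that draw in monocytes, and adhesion molecules by which endothelial cells hold passing leukocytes. In RNA of a whole tissue, cardiomyocytes, endothelial cells, fibroblasts and macrophages all contribute to these transcripts, and fewer cells of a type cannot be told apart from less RNA per cell.

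Library totals ranged from 7447664 to 10161623 reads, and 1 CPM stood for 7.46 to 10.3 reads. CPM here are a library's counts in tested genes divided by its TMM-scaled size, so that all libraries are on 1 scale. Summed cardiomyocyte markers ranged from 32700 to 55300 CPM, with all 10 tested, so the libraries carried the heart's defining transcripts. Vehicle 1, 2 and 4 each stood apart in another way. Vehicle 1 had the highest sum of 16 macrophage markers, at 1310 CPM (712 to 819 CPM in the remaining 7), and the lowest cardiomyocyte sum. Vehicle 2 had 1350 CPM of Alb, a liver transcript, against 0 to 6.38 CPM elsewhere. Vehicle 4 had 2140 CPM over 18 interferon response genes, against 206 to 454 CPM elsewhere. Vehicle 1 and 4 also had the most atrial marker RNA, at 824 and 328 CPM against 13.6 to 130 CPM elsewhere. Vehicle 1 had the highest fibroblast sum as well, at 5080 CPM.

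None of the 10 genes passed the test between DIZE and vehicle. In edgeR's quasi-likelihood fit, adjusted over all tested genes, 0 of 10 had an adjusted p under 0.05, where 5 genes or 0.0366% of all tested genes had one. DESeq2 and limma-voom also called 0 of the 10. At an unadjusted p under 0.05 there were 2 of 10, Tlr4 and Ccl2, beside 19.4% of all tested genes. The 2 lay in opposite directions, Tlr4 lower and Ccl2 higher in DIZE. In 0 of 10 did the groups fail to overlap, beside 12.4% of all tested genes. Of the 10, 5 had a higher and 5 a lower fitted value in DIZE, with a median log2 fold change of -0.03, and the median over all tested genes was -0.01. The 10 genes thus lay near or below the background on each of these counts.

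**Figure D1:**
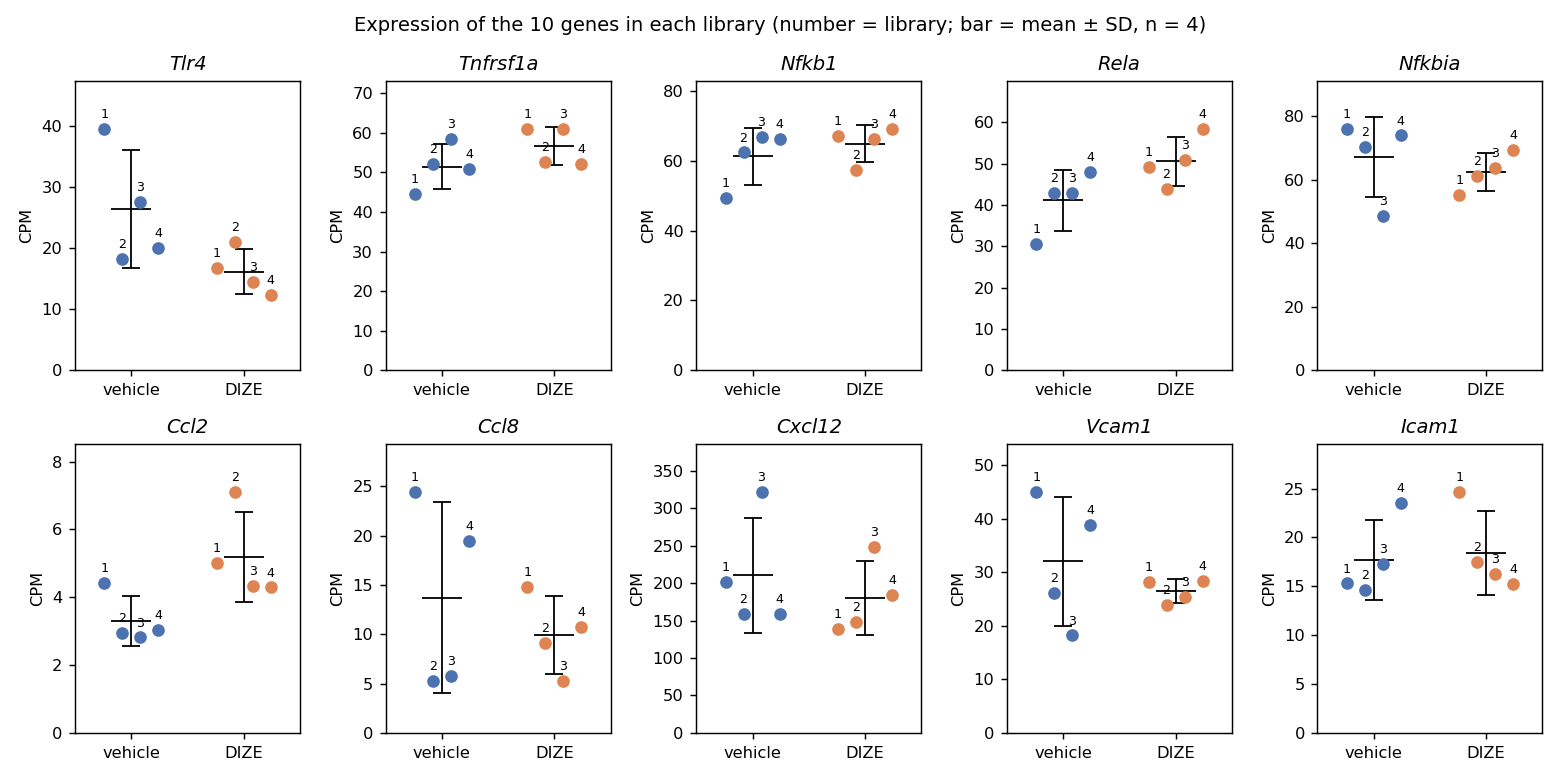
CPM of each gene (y axis, starting at 0) in the 4 vehicle and 4 DIZE libraries (x axis). Points are libraries, numbered, and bars give the mean ± SD. The groups overlap in all 10 panels, and Vcam1 spans 18.2 to 45.1 CPM with vehicle and 23.9 to 28.5 CPM with DIZE.

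Tlr4 had the largest difference toward lower values. It encodes the receptor for bacterial lipopolysaccharide (ENSMUSG00000039005, chromosome 4 from 66827584 to 66930284, plus strand, GRCm38). It had 39.5, 18.2, 27.6 and 20.1 CPM in vehicle 1 to 4, and 16.7, 21.1, 14.4 and 12.4 CPM in DIZE 1 to 4. Vehicle 1 was the highest library, and DIZE 2 lay above vehicle 2 and vehicle 4, so the groups overlapped. The means were 26.4 ± 9.66 CPM (SD, n = 4) and 16.2 ± 3.72 CPM, with a log2 fold change of -0.71 ± 0.25 (SE). Its 95% interval was -1.26 to -0.17, a fold of 0.42 to 0.89 (unadjusted p = 0.015, edgeR adjusted p = 0.17).

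The Tlr4 difference was smaller without vehicle 1, at log2 -0.45 (edgeR adjusted p = 0.296). Vehicle 1 was also the library with most macrophage, fibroblast and atrial marker RNA, and the part of those cells in the Tlr4 value was not tested. In the 4 libraries whose titles contain the letters db (vehicle 1 and 2, DIZE 1 and 2), Tlr4 had log2 -0.61 (adjusted p = 0.603). In the other 4 libraries it had -0.82 and passed (adjusted p = 0.0259), in a fit of 2 against 2 that called 9.57% of all genes. With the GC and exon length trends of the libraries removed, Tlr4 had log2 -0.555 (edgeR adjusted p = 0.178). Its longest transcript had the lowest GC content of the 10 genes, at 39.4%, and the part of GC content was not tested.

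Tnfrsf1a encodes the main receptor for TNF on most cells (ENSMUSG00000030341, chromosome 6 from 125349362 to 125362484, plus strand). It varied little, with 44.5, 52.2, 58.5 and 50.8 CPM in vehicle 1 to 4 and 60.9, 52.8, 60.9 and 52.2 CPM in DIZE 1 to 4. The means were 51.5 ± 5.71 and 56.7 ± 4.89 CPM, and the lower pair of DIZE libraries lay inside the vehicle range. The log2 fold change was 0.14 ± 0.12 with an interval of -0.12 to 0.40 (edgeR adjusted p = 0.538). As a fold, that interval runs from 0.92 to 1.32.

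The NF-kB subunit genes did not pass either, and the inhibitor gene sat between its own vehicle values. Nfkb1 encodes the p105 precursor of p50 (ENSMUSG00000028163, chromosome 3 from 135584655 to 135691547, minus strand). It had 49.5, 62.5, 66.9 and 66.4 CPM in vehicle and 67.3, 57.4, 66.3 and 69.1 CPM in DIZE. Apart from vehicle 1, the libraries lay between 57.4 and 69.1 CPM, and the log2 fold change was 0.09 ± 0.12 (interval -0.19 to 0.36, edgeR adjusted p = 0.737). Without vehicle 1 it was -0.005, and with the GC and exon length trends of the libraries removed it was 0.277 (edgeR adjusted p = 0.254).

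Rela encodes p65, the subunit with a transcription activation domain (ENSMUSG00000024927, chromosome 19 from 5637483 to 5648130, plus strand). It had 30.5, 42.8, 42.9 and 48.1 CPM in vehicle and 49.2, 44.0, 50.8 and 58.3 CPM in DIZE. Only DIZE 2 lay within the vehicle range, and 3 DIZE libraries lay above all 4 vehicle libraries. The means were 41.1 ± 7.47 and 50.6 ± 5.94 CPM, with log2 0.30 ± 0.15 (interval -0.03 to 0.63, edgeR adjusted p = 0.296). Rela had the highest GC content of the 10 genes, at 59.4% in its longest transcript, and the median log2 fold change of all tested genes over 52.8% GC was 0.15. Once the GC and exon length trends of the libraries were removed, Rela had log2 0.08. The part of GC content in the Rela value was not tested.

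Nfkbia is both the inhibitor gene and a standard target of the pathway (ENSMUSG00000021025, chromosome 12 from 55489410 to 55492647, minus strand). Its RefSeq promoter is shown because it was the only one of the 6 promoters used with a match to the kappa-B consensus, the motif NF-kB binds, and that of Icam1 because it holds 9 of the same bases. Of the 10 genes, 6 had an entry in the RefSeq promoter table of GRCm38.p6, which spans 250 bases before to 50 bases after the gene start. These were Tnfrsf1a, Rela, Nfkbia, Ccl8, Cxcl12 and Icam1. Both strands were searched for the kappa-B consensus and, chosen after the sequences had been seen, for GGANNTTCC, which overlaps the consensus match. The consensus was in 8.46% of all 32851 promoters and GGANNTTCC in 4.26%. The consensus matched in 1 of the 6, Nfkbia, and GGANNTTCC in 2, Nfkbia and Icam1. The 250 bases before the start are printed 5′ to 3′ on the gene's strand, with the matches in capitals, at chr12:55492648-55492897 (minus strand) and chr9:21015690-21015939 (plus strand).
Nfkbia: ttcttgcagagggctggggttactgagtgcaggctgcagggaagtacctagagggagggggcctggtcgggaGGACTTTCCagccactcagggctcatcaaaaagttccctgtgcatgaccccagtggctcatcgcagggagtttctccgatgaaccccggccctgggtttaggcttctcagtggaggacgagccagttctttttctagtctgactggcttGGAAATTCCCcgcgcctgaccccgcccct
Icam1: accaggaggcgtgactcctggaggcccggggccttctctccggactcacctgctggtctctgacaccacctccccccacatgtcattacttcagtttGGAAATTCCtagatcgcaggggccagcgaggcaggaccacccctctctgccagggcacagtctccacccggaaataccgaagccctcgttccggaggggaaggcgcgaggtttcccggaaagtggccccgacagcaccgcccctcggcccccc

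The matches in the Nfkbia promoter began 178 and 29 bases before the RefSeq gene start, and the match in Icam1 began 153 bases before the RefSeq start of that gene, which lies upstream of the GENCODE start given for Icam1 below. The nearer Nfkbia match was also the consensus match, on the opposite strand. A match describes the letters only. The measured transcripts of these 2 genes, which share the element GGAAATTCC, did not differ detectably between the groups.

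Nfkbia had 75.8, 70.2, 48.7 and 73.9 CPM in vehicle and 55.2, 61.2, 63.6 and 69.4 CPM in DIZE. All 4 DIZE libraries lay between vehicle 3, the lowest library, and vehicle 2. The means were 67.1 ± 12.5 and 62.3 ± 5.89 CPM, with log2 -0.11 ± 0.15 (interval -0.43 to 0.22, edgeR adjusted p = 0.719). Without vehicle 3 the groups did not overlap, as in 15.7% of all tested genes, and the value was -0.23.

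Other genes of the core pathway, listed as NF-kB subunits, inhibitors and kinases, gave 0 calls among 20 tested of 21, with 11 higher and 9 lower in DIZE (median log2 0.05, or 0.02 without vehicle 1). The named ones are those with the smallest unadjusted p. Tab1, an adaptor of the kinase TAK1, averaged 32.9 ± 4.72 CPM with vehicle and 48.3 ± 9.24 CPM with DIZE (log2 0.56 ± 0.16, edgeR adjusted p = 0.125). Chuk and Ikbkb, the catalytic subunits of the IkB kinase, both lay lower in every DIZE library than in any vehicle library. In this list the groups did not overlap in 3 of 20 tested genes, beside 12.4% of all tested genes. Tnip1, named after its values were seen, was the 1 of these that lay higher in DIZE (log2 0.35 ± 0.14, edgeR adjusted p = 0.219). Chuk had 51.7 ± 3.83 and 41.7 ± 3.95 CPM (log2 -0.31 ± 0.11, adjusted p = 0.178), and Ikbkb had 41.5 ± 4.04 and 34.2 ± 2.46 CPM (log2 -0.28 ± 0.11, adjusted p = 0.217).

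Among receptors and adaptors of Toll-like and TNF signalling, 0 of 25 tested genes of 28 passed, with 18 lower and 7 higher in DIZE (median log2 -0.19). All 8 tested Toll-like receptor genes other than Tlr4 had a lower fitted value, and in 4 of them the groups did not overlap, beside 12.4% of all tested genes. This set was singled out after its values were seen, and vehicle 1 carried part of the direction. Without that library Tlr1 had log2 0.035 and Tlr6 0.022, while Tlr7 went from -0.61 to -0.15 and Tlr13 from -0.70 to -0.30. Vehicle 1 was the library with most macrophage, fibroblast and atrial marker RNA, and the part of those cells in these values was not tested. Tlr8, a receptor for RNA in endosomes, had 4.75 ± 1.84 and 2.27 ± 0.68 CPM (log2 -1.09 ± 0.32, edgeR adjusted p = 0.129). Tlr5, the flagellin receptor, had 2.15 ± 0.54 and 1.09 ± 0.22 CPM (log2 -0.98 ± 0.29, adjusted p = 0.137). Ripk1, a kinase recruited to the TNF receptor, had 22.1, 14.2, 17.8 and 19.9 CPM in vehicle and 12.7, 10.8, 10.5 and 13.4 CPM in DIZE (log2 -0.65 ± 0.16, adjusted p = 0.101). For Ripk1 the highest DIZE library was below the lowest of vehicle. Ly96, which encodes the TLR4 co-receptor MD-2 and is named after its values were seen, lay the other way from Tlr4, at 2.25 ± 0.25 and 3.43 ± 0.79 CPM (log2 0.60 ± 0.24, adjusted p = 0.207).

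**Figure D2:**
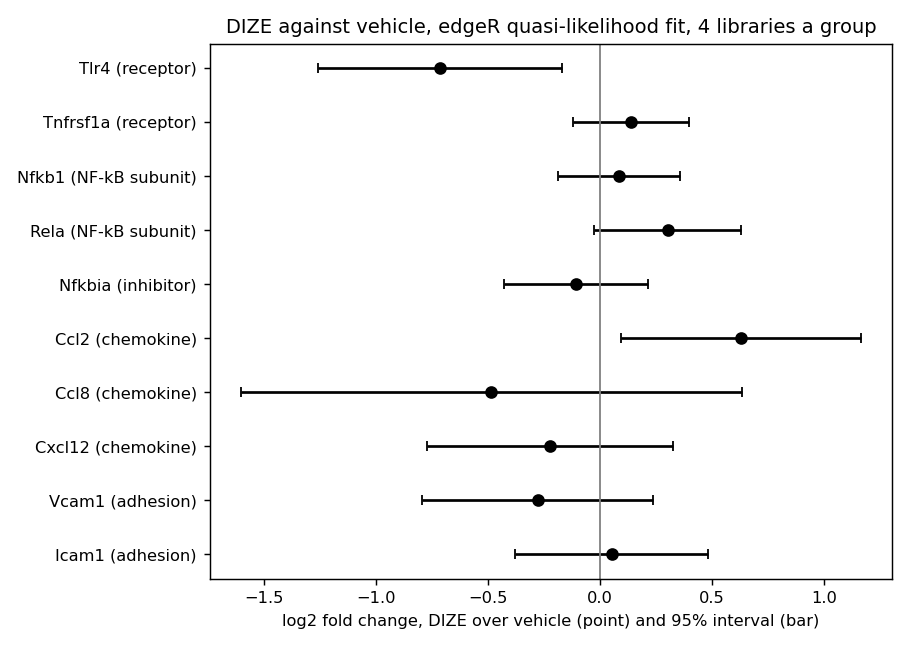
Log2 fold change of DIZE over vehicle (x axis) for the 10 genes (y axis), as the estimate of edgeR's fit (point) with its 95% interval (bar). The intervals of Tlr4 (-1.26 to -0.17) and Ccl2 (0.09 to 1.17) exclude 0 before adjustment, and the other 8 include it.

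The chemokines went in different directions, and none passed. Ccl2 encodes MCP-1, which attracts monocytes through CCR2 (ENSMUSG00000035385, chromosome 11 from 82035571 to 82037453, plus strand). It was the least abundant of the 10 by CPM, with 21 to 54 reads a library. It had 4.41, 2.95, 2.82 and 3.04 CPM in vehicle and 5.01, 7.11, 4.34 and 4.29 CPM in DIZE. DIZE 2 was the highest, and all 4 DIZE libraries lay above vehicle 2, 3 and 4, while vehicle 1 lay among the lower DIZE values. The means were 3.31 ± 0.74 and 5.19 ± 1.32 CPM, with log2 0.63 ± 0.24 (interval 0.09 to 1.17, or a fold of 1.07 to 2.25, unadjusted p = 0.0249, edgeR adjusted p = 0.198).

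Ccl2 was higher in DIZE within both forms of sample title, in fits of 2 against 2 that did not pass. It had log2 0.71 where the title holds db (edgeR adjusted p = 0.588) and 0.55 where it does not (adjusted p = 0.258). Without DIZE 2 its value was 0.45, and with the GC and length trend removed it was 0.91 (edgeR adjusted p = 0.0905), still short of the threshold. The receptor gene for MCP-1, Ccr2, chosen after its values were seen, averaged 4.23 ± 2.48 CPM with vehicle and 3.92 ± 1.92 CPM with DIZE (log2 -0.11 ± 0.44).

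Ccl8 encodes MCP-2, a related chemokine of the same gene cluster (ENSMUSG00000009185, chromosome 11 from 82115185 to 82116799, plus strand). It had 24.4, 5.26, 5.77 and 19.4 CPM in vehicle and 14.8, 9.08, 5.25 and 10.7 CPM in DIZE. Vehicle 1 and 4 were high and vehicle 2 and 3 low, and all but 1 DIZE library fell in the gap between them. Ccl8 varied most of the 10, by 4.65-fold between its lowest and highest library. The means were 13.7 ± 9.69 and 9.96 ± 3.94 CPM, with log2 -0.49 ± 0.50 (interval -1.61 to 0.64, edgeR adjusted p = 0.625). Vehicle 1 was the library with most macrophage marker RNA and vehicle 4 that with most interferon response RNA. These 2 libraries also had the most atrial marker RNA. The part of each of these in the Ccl8 levels was not tested. Ccl8 had log2 -0.06 without vehicle 1 and -0.27 without vehicle 4. Ccl12, another chemokine of the cluster, chosen after its values were seen and too low to be tested, was also highest in vehicle 1 (4.72 CPM) and vehicle 4 (5.20 CPM), and DIZE 1 was next (4.15 CPM) with the others at 0.488 to 1.05 CPM.

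Cxcl12 encodes SDF-1, the ligand of CXCR4 and ACKR3, which stromal cells make constitutively (ENSMUSG00000061353, chromosome 6 from 117168535 to 117181367, plus strand). It was the most abundant of the 10 by CPM, with 201.7, 159, 322 and 159 CPM in vehicle and 138.6, 148.7, 249 and 184.6 CPM in DIZE. Vehicle 3 and DIZE 3 were the highest libraries of their groups. The same 2 libraries had the highest sum of 14 endothelial markers in their groups, at 2490 and 2120 CPM. The others had 1800 to 1840 and 1650 to 2050 CPM. DIZE 3 also had the highest fibroblast sum and the highest pericyte and smooth muscle sum of its group, at 4630 and 1600 CPM. In vehicle, the pericyte and smooth muscle sum was highest in vehicle 1 and 3, at 1910 CPM each, and the fibroblast sum in vehicle 1. The part of these cells in the Cxcl12 values was not tested. The means were 210.4 ± 76.8 and 180.1 ± 49.8 CPM, with log2 -0.22 ± 0.25 (interval -0.77 to 0.33, edgeR adjusted p = 0.65), and the value was 0.06 without vehicle 3.

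Of 28 other chemokine ligand genes, 13 were tested and 0 passed, with 7 higher and 6 lower (median log2 0.05, or 0.20 without vehicle 1 and -0.23 without vehicle 4). Ccl21a and Cxcl11 had 0 reads in all 8 libraries. Cxcl14 averaged 8.77 ± 1.3 CPM with vehicle and 13.7 ± 3.52 CPM with DIZE (log2 0.64 ± 0.21, edgeR adjusted p = 0.148). Cx3cl1, which encodes the membrane-bound chemokine fractalkine, had 9.54, 13.6, 14.9 and 15.8 CPM in vehicle and 17.0, 16.6, 17.5 and 20.6 CPM in DIZE. Its groups did not overlap (log2 0.42 ± 0.17, adjusted p = 0.213). Ccl11, the eotaxin gene, had 3.58 ± 0.93 and 2.26 ± 0.64 CPM (log2 -0.66 ± 0.29, adjusted p = 0.241).

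Chemokine receptor genes gave 0 calls among 9 tested of 16, with 8 lower and 1 higher in DIZE (median log2 -0.27, or 0.03 without vehicle 1). Ackr4, a scavenging receptor that takes up CCL19, CCL21 and CCL25, came closest of the pathway genes to the threshold. It had 24.4, 15.6, 23.5 and 14.0 CPM in vehicle and 8.91, 9.60, 9.30 and 8.68 CPM in DIZE. Every DIZE library lay below every vehicle library (log2 -1.09 ± 0.19, edgeR adjusted p = 0.0707). Cxcr4, the signalling receptor for the Cxcl12 product, had 9.26 ± 1.99 and 6.82 ± 2.35 CPM (log2 -0.43 ± 0.24, adjusted p = 0.346). Ccrl2, which binds chemerin, had 20.0 ± 6.60 and 14.4 ± 3.95 CPM (log2 -0.47 ± 0.25, adjusted p = 0.312).

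The adhesion genes Vcam1 and Icam1 did not differ detectably, and Vcam1 was far more even in DIZE. Vcam1 encodes the endothelial ligand of the leukocyte integrin VLA-4 (ENSMUSG00000027962, chromosome 3 from 116109949 to 116129688, minus strand). It had 45.1, 26.2, 18.2 and 38.8 CPM in vehicle and 28.2, 23.9, 25.5 and 28.5 CPM in DIZE. As with Ccl8, vehicle 1 and 4 were high and vehicle 3 low, and all 4 DIZE libraries lay between them. The means were 32.1 ± 12.1 and 26.5 ± 2.19 CPM, with log2 -0.28 ± 0.23 (interval -0.80 to 0.24, edgeR adjusted p = 0.535). The value was -0.07 without vehicle 1, -0.47 without vehicle 3 and -0.066 with the GC and exon length trends removed.

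Icam1 encodes a ligand of the integrins LFA-1 and Mac-1 (ENSMUSG00000037405, chromosome 9 from 21015985 to 21028817, plus strand). It had 15.3, 14.6, 17.3 and 23.5 CPM in vehicle and 24.7, 17.5, 16.3 and 15.2 CPM in DIZE. Each group had 1 high library, vehicle 4 and DIZE 1, and the other 6 lay between 14.6 and 17.5 CPM. The means were 17.7 ± 4.07 and 18.4 ± 4.27 CPM, with log2 0.05 ± 0.20 (interval -0.38 to 0.48, edgeR adjusted p = 0.911). Its sign differed between the forms of title, at 0.50 in the libraries with db and -0.38 in the others, neither of which passed.

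Of 19 other genes of leukocyte adhesion, 14 were tested and 0 passed, with 11 lower and 3 higher (median log2 -0.11). Icam2, a constitutive endothelial relative of Icam1, had 33.2, 27.6, 26.4 and 33.5 CPM in vehicle and 19.9, 18.6, 21 and 22.8 CPM in DIZE. Its groups did not overlap (log2 -0.55 ± 0.13, edgeR adjusted p = 0.0936). Jam3 and Jam2, junctional adhesion molecule genes, had log2 -0.50 ± 0.22 (adjusted p = 0.246) and -0.21 ± 0.11 (adjusted p = 0.309). Sele, which encodes the inducible endothelial selectin and is named after its values were seen, was low in both groups, at 2.62 ± 1.26 and 2.39 ± 1.66 CPM.

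Among 21 other NF-kB target genes, 16 were tested and 0 passed, with 9 higher and 7 lower (median log2 0.04). Csf2 had 0 reads in all 8 libraries. Cflar, which encodes an inhibitor of caspase-8, averaged 67.1 ± 14.2 CPM with vehicle and 39.2 ± 6.01 CPM with DIZE (log2 -0.78 ± 0.17, edgeR adjusted p = 0.0888). Mmp9, the gelatinase B gene, lay the other way, at 1.16 ± 0.37 and 2.91 ± 0.70 CPM (log2 1.34 ± 0.31, adjusted p = 0.0938). The groups did not overlap for either gene.

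Over the 6 lists together, 0 of 97 tested genes passed in edgeR's test, 21 had an unadjusted p under 0.05 and 14 had groups without overlap, both near the background of 19.4% and 12.4% of all tested genes. By direction they were 38 higher and 59 lower, with a median log2 fold change of -0.12. DESeq2 called 6 of the pathway genes, namely Tab1, Ripk1, Ackr4, Icam2, Cflar and Mmp9, in a fit that called 4.09% of all genes with an adjusted p.

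**Figure D3:**
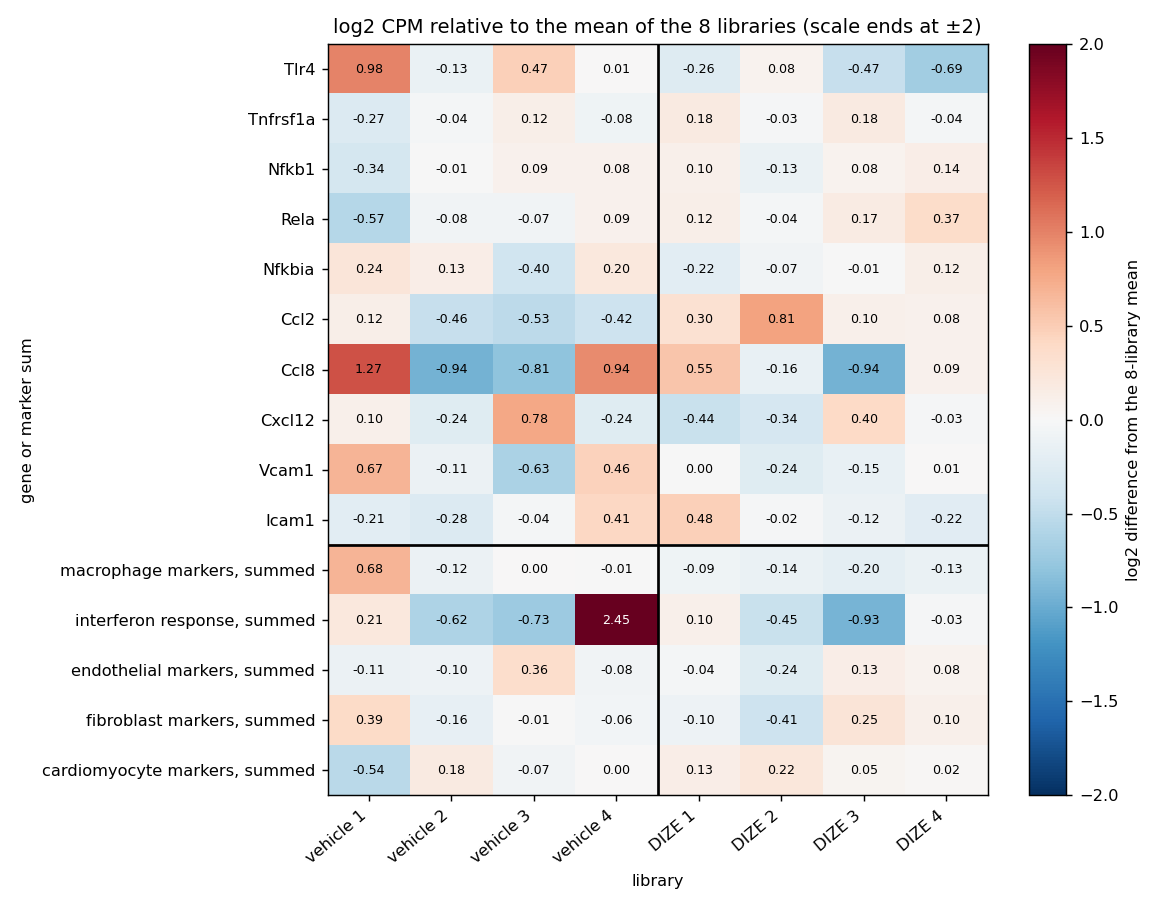
Log2 CPM relative to the mean of the 8 libraries (color and printed values) for the 10 genes and for 5 summed lists (y axis), by library (x axis). Vehicle 1 is the highest of the 8 for 4 genes (Tlr4, Nfkbia, Ccl8 and Vcam1) and the lowest for 3 (Tnfrsf1a, Nfkb1 and Rela), and it also has the highest macrophage and lowest cardiomyocyte sums.

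Many of the extreme values came from 1 library. Vehicle 1 was the extreme library for 7 of the 10 genes, the highest for Tlr4, Nfkbia, Ccl8 and Vcam1 and the lowest for Tnfrsf1a, Nfkb1 and Rela. How often it was the extreme library over all tested genes was not counted, so this may not be particular to the 10. In 8 of 10 genes the SD of log2 CPM was larger in vehicle than in DIZE, and this held for 59.1% of all tested genes. For Vcam1 the SD on the log2 scale was 0.58 in vehicle and 0.12 in DIZE, and for Ccl8 it was 1.10 and 0.59. Ccl2 was more variable in DIZE, at 0.31 against 0.26.

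Per kilobase of exon, the order of the 10 genes differed from that by CPM. The length counts every annotated exon base over all transcripts of a gene, from 0.511 kb for Ccl8 to 12.061 kb for Nfkb1. Nfkbia was the highest, at 40.2 ± 5.85 CPM per kb (SD over 8 libraries), followed by Cxcl12 at 23.9 ± 7.59, Ccl8 at 23.2 ± 14.0, Tnfrsf1a at 20.9 ± 2.18 and Rela at 14.9 ± 2.62 CPM per kb. A lower set followed, with Nfkb1 at 5.24 ± 0.55, Icam1 at 4.14 ± 0.89, Tlr4 at 3.83 ± 1.57, Ccl2 at 3.73 ± 1.24 and Vcam1 at 3.30 ± 0.97 CPM per kb. The ranges over the 8 libraries overlapped for every pair of neighbours in this order but Rela and Nfkb1. Rela was at 9.92 CPM per kb or more in each library and Nfkb1 at 5.73 or less. Nfkbia thus stood 2.7-fold above Rela and 7.68-fold above Nfkb1 per length counted this way. The transcripts present in these hearts may be shorter than that length, and the effect on the order and on these folds was not tested.

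The genes most like the 3 most variable ones were found by the root mean square difference of log2 CPM, centred per gene, over the 8 libraries. For Ccl8 these were Slfn2 (0.37), Ifi204 (0.43) and Psmb8 (0.45). For Tlr4 they were Washc4 (0.12), Tmod3 (0.14) and Tpm4 (0.15), and for Ccl2 they were Maged2 (0.18), Ten1 (0.18) and Klhl13 (0.19). The comparison ran over 10411 genes averaging 5 CPM or more, and its values describe these 8 libraries only.

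Markers of the cells that could carry these transcripts also gave 0 calls. Of 16 macrophage markers 14 had a lower value in DIZE (median log2 -0.40, or -0.17 without vehicle 1), with sums of 755 to 1310 CPM in vehicle and 712 to 771 CPM in DIZE. The most abundant were Lyz2 and Csf1r. Csf1r was at 76.8 to 97.6 CPM over the 8 libraries, and Lyz2 was at 506 CPM in vehicle 1 and between 191 and 255 CPM in the remaining 7. Of 14 endothelial markers 10 were lower (median -0.12, or -0.18 without vehicle 4), but the 2 most abundant, Cdh5 and Eng, had log2 0.11 and 0.43. Of 12 fibroblast markers 10 were lower (median -0.31, or -0.15 without vehicle 1), and the 2 most abundant, Gsn and Dcn, had log2 0.17 and -0.21. Of 7 tested pericyte and smooth muscle markers 6 were lower (median -0.19, or -0.04 without vehicle 1). All 17 tested interferon response genes of 18 were lower (median -0.97, or -0.20 without vehicle 4). Cardiomyocyte markers were higher for 9 of 10 (median 0.12, or 0.07 without vehicle 1).

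Most lymphocyte and neutrophil markers had too few reads to be tested. Summed levels of 10 T and NK cell markers were 2.95 to 6.67 CPM in vehicle and 1.92 to 4.78 CPM in DIZE, and 1 was tested. The 6 B and plasma cell markers summed to 11.1 to 22.5 and 4.74 to 20.1 CPM, with 1 tested, Ighm, which had 3.82 to 19.3 CPM and made up most of the sum. The 7 neutrophil markers summed to 0.785 to 5.34 and 1.92 to 6.96 CPM, with 0 tested and Ly6g at 0 reads in all libraries. The 5 adipocyte markers had at most 9.13 CPM in vehicle and 1.66 CPM in DIZE, with 0 tested. Atrial markers (5 genes) summed to 35.7 to 824 CPM with vehicle and 13.6 to 130 CPM with DIZE. The 3 erythroid markers summed to 45.1 to 92.9 CPM in vehicle and 4.34 to 32.4 CPM in DIZE, and the 8 hepatocyte markers to 6.57 to 1810 and 7.58 to 17.3 CPM.

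Nfkb1, Ccl2, Vcam1 and Icam1 each overlap 1 other annotated gene. Vcam1 shares 61 exon bases and Icam1 shares 511 with a gene on the other strand, and Nfkb1 and Ccl2 share 0. Reads there may have been left uncounted, depending on the strand setting, and what this did to the counts was not tested. Ccl2 and Ccl8 belong to a cluster of related chemokine genes, and reads shared between related copies would be uncertain.

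**Figure D4:**
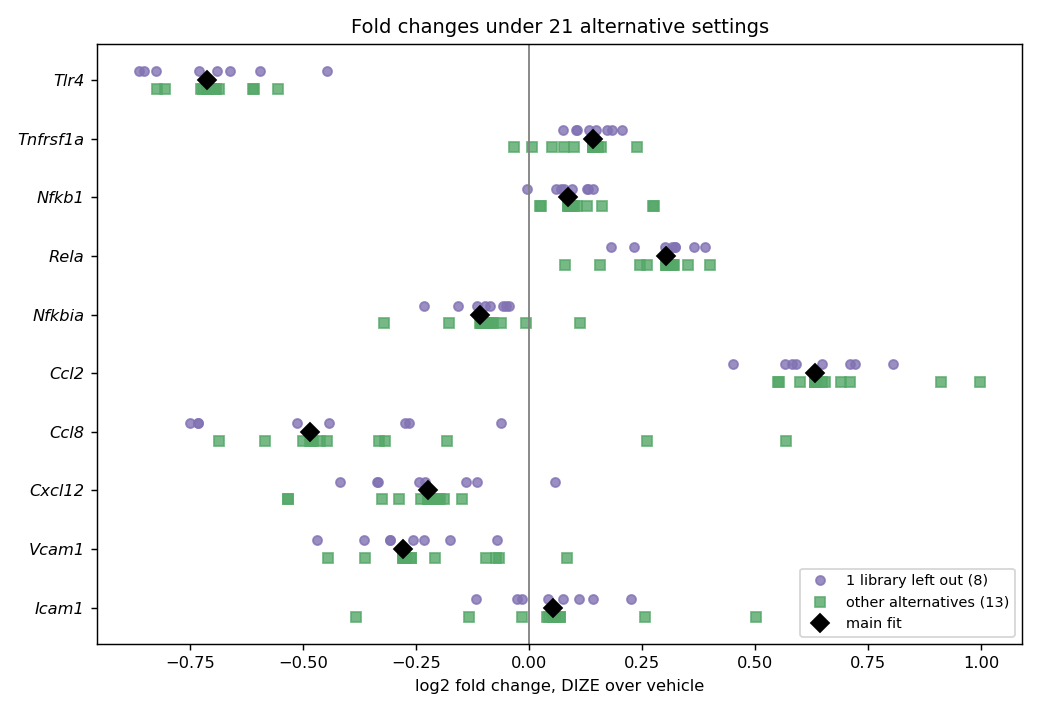
Log2 fold change of DIZE over vehicle (x axis) for the 10 genes (y axis) in the reported fit (black), with 1 library left out (8 circles a gene) and under 13 other settings (squares). Tlr4 and Rela keep their side of 0, as does Ccl2. Each of the other genes crosses 0 in at least 1 setting, and Icam1 does so most often, in 6 of 21.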

How the data were processed

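Heart RNA was sequenced as read pairs from stranded poly(A) libraries, per the labels' protocols. Build mm10, R 4.1, edgeR, HTSeq 0.6.1p1 and STAR 2.7.3 are listed in the submitters' processing notes. The authors deposited unnormalized counts by Ensembl gene. Annotation release and strand setting: not given in the sources used here. Columns were tied to samples by the description in the labels, and groups by the treatment, with libraries numbered in accession order.

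Symbols matched 55141 IDs. Positions, exon lengths and GC content came from GENCODE M21 on GRCm38, the assembly of mm10. Genes passed filterByExpr (minimum count 10, total 15), leaving 13648. The test was the two-sided edgeR 4.0.16 quasi-likelihood test (robust, TMM, no covariate) in R 4.3.3, with Benjamini-Hochberg adjustment over all tested genes and a threshold of 0.05. The 95% intervals use its standard errors. No pair of libraries agreed within sampling noise (chi-square at least 5.54 per degree of freedom). Simulated counts were used to gauge the fit, in 5 runs over 13648 genes with 200 changed genes each. Each gene was drawn on its own, without the effects shared by many genes that set vehicle 1, 2 and 4 apart. A 1.5-fold difference was detected in 13.8% of cases, a 2-fold one in 69.3% and a 4-fold one in 97.4%. False calls made up 5.13% of the calls. These shares hold for the simulated setting and may not carry over to the real libraries. Even in that setting, a gene that differed by about 1.5-fold mostly went undetected.

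Genes were named by rule: all 10 members, the 3 smallest unadjusted p of each pathway list, the 3 closest profiles (with 0.1 CPM added before the log) to each of the 3 most variable members, and the 2 most abundant markers of a list. Of these, 1 gene is not reported here. The members and the 6 pathway and 13 marker lists were chosen with earlier results of these data known. Alternatives were DESeq2 1.42.0, limma-voom (limma 3.58.1), other factors and filters, blocks, a GC and length correction, and leaving out each library.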

Additional observations from a re-analysis of the deposited data

Results flagged for a closer look

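Of 20 sets of 4 libraries (10 genes in 2 groups), 1 had a library far from the others. Ccl2 in vehicle 1 was at 4.41 CPM, and the next highest vehicle library was at 3.04 CPM, a gap of 0.859 of the group's range and above Dixon's 95% critical value for 4 libraries. Chance alone sets apart about 1 in 20 such sets. Without vehicle 1 the Ccl2 groups did not overlap, as in 14.7% of all tested genes. Its log2 fold change was then 0.80 (edgeR adjusted p = 0.151).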

How the results depend on the processing

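Of 210 values of the 10 genes under 21 alternatives, 196 kept their direction and side of the threshold, 13 changed sign and 1 passed (Tlr4, above). Icam1 had log2 -0.017 with library size only, -0.13 with the GC and length trend removed, -0.38 in libraries without db in the title and -0.12 to 0.22 with 1 library left out. In libraries without db Nfkbia had 0.11. With 1 library left out, Nfkb1 had -0.005 to 0.14 and Cxcl12 -0.42 to 0.056. The number in the sample titles is shared by the groups in part and the labels do not say what it marks. With that replicate block, Ccl8 had 0.26, the median of the 10 was 0.11 and 0 genes were called over all, and with the GC correction added, Ccl8 had 0.57, Vcam1 0.084 and Tnfrsf1a -0.034, with 1 gene called. Title number pairing was not seen in the correlations of same-numbered libraries, -0.141 to 0.016.

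Calls over all genes, 5 in the reported fit, were 588 with DESeq2, 386 without a filter, 43 with the GC correction, 9 with title form as a block, 0 with library size only, 0 in libraries with db and 1349 in those without, and 0 to 240 with 1 library left out, the most without vehicle 2. Pathway genes called, 0 in the reported fit, were 6 with DESeq2, 4 without a filter, 1 with the GC correction, 9 in libraries without db and 0 to 3 with 1 left out (3 without vehicle 2: Ripk1, Ackr4 and Cflar). Members called were 1 in libraries without db. Members without overlap were 6 and 4 in the title forms alone, beside 44.3% and 56.7% of all genes. With 1 library left out they were 0 to 2, beside 14.7% to 22% of all genes. The 2 were Tlr4 and Rela, without DIZE 2, where the share of all genes was 19.2%. The cause of these shifts was not tested. With 21 to 54 reads a library, Ccl2 carries the largest counting error of the 10.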
